A study of Mus musculus with 4 samples.

Results

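A set of 10 genes of the NF-kB system was examined for chromatin accessibility in mouse bone marrow-derived macrophages (BMDMs) from WT and H3.3 conditional knockout (cKO) mice. They comprised the 5 subunit genes Nfkb1, Nfkb2, Rel, Rela and Relb, and 5 inhibitor or regulator genes, Nfkbia, Nfkbie, Nfkbiz, Tnfaip3 and Bcl3, of 21728 protein-coding genes in the annotation. The members were taken by name, and every peak that overlapped a gene body or the 20 kb on either side of it was taken. ATAC-seq, in which the Tn5 transposase inserts adapters into open DNA, was performed on 2 WT and 2 cKO libraries, labelled as biological replicates. Per the study's methods, the WT mice were H3f3a fl/fl H3f3b fl/fl, and the cKO mice carried the same floxed alleles together with LysM cre/cre, on a C57BL/6 background. H3f3a and H3f3b both encode the histone variant H3.3, and LysM-Cre is expressed from the Lyz2 locus in macrophages and granulocytes, so that the deletion is not particular to macrophages. Deletion of H3f3b varied between cKO samples from complete to partial, per the study, and the state of these libraries is not given. The WT mice lacked the Cre allele, so that the effect of Cre and that of the deletion cannot be told apart. Marrow came from mice of 8 to 10 weeks, the labels name no treatment, and cells were grown, per the labels, for 6 to 8 days, and for this assay to day 7 per the study, in medium containing 20% L929 conditioned medium, a source of macrophage growth factor. Both male and female mice were used per the study, which does not state the sex behind each library. The labels call the replicates biological without saying whether they came from separate animals, and the p-values measure the spread between these libraries.

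NF-kB is a family of dimeric transcription factors that turn on inflammatory, survival and immune genes in macrophages. In resting cells the dimers are held in the cytoplasm by IkB proteins, and signals from Toll-like, tumor necrosis factor and interleukin-1 receptors lead to destruction of the inhibitor and entry of the dimer into the nucleus. Several inhibitors are themselves NF-kB target genes and so form negative feedback loops, and a slower, noncanonical route processes the p100 product of Nfkb2 to give p52 partnered with RelB. Nfkb1 encodes p105 and p50, Rela encodes p65, the main activating subunit, and Rel encodes c-Rel. Among the inhibitors, Nfkbia and Nfkbie encode the cytoplasmic IkB-alpha and IkB-epsilon, while Nfkbiz and Bcl3 encode the nuclear, atypical IkB proteins IkB-zeta and Bcl-3. Tnfaip3 encodes A20, a ubiquitin-editing enzyme that restrains signalling upstream of the kinase that acts on IkB.

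The peaks of the 4 libraries were merged into regions, and 78 of 71243 regions lay at the 10 genes. The subunit genes held 37 of them and the inhibitor genes held 41. A match to the NF-kB consensus (the kB site) within 100 bp of a summit was found at 16 of the 78 regions. The matches at the starts of the members and some of those elsewhere are shown first. They stand in capitals with 10 bases on each side, in mm10 coordinates. The strand is the one on which the match reads in the direction of the consensus.
Nfkb1, start, reverse strand, chr3:135691497-135691526: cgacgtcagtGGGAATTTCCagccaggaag
Nfkb2, a further annotated start, forward strand, chr19:46305695-46305724: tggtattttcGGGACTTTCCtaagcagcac
Rela, 11.7 kb downstream of the start, forward strand, chr19:5648936-5648965: ctaagcggtgGGGAAACCCCtatgctgaga
Nfkbia, start, forward strand, chr12:55492657-55492686: gtcaggcgcgGGGAATTTCCaagccagtca
Nfkbie, start, forward strand, chr17:45555584-45555613: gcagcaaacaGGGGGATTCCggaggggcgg
Nfkbiz, start, reverse strand, chr16:55838850-55838879: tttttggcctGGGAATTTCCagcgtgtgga
Tnfaip3, start, forward strand, chr10:19015403-19015432: ttgccaacagGGGGATTTCCgatggaaatt
Tnfaip3, intron, lost in cKO, forward strand, chr10:19008826-19008855: gtggggacctGGGATTTTCCtctcctagct
Bcl3, intron, forward strand, chr7:19817620-19817649: tgtgcgggaaGGGATTTCCCcgaggcggca

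The sequences at the summits of 7 distal regions described in the results are given as 151-base windows on the forward strand of mm10. Capitals mark any match to the consensus letters searched, and a window without capitals holds none of them.
Nfkb1, 8.2 kb upstream of the start, lower in cKO, chr3:135699685-135699835: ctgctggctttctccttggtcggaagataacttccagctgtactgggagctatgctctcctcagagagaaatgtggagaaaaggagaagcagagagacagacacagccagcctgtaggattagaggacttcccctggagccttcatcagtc
Tnfaip3, intron, 6.18 kb downstream of the start, lower in cKO, chr10:19009463-19009613: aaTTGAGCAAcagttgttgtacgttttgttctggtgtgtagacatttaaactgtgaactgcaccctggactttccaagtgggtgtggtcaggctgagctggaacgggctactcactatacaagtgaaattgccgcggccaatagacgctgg
Tnfaip3, 18.2 kb upstream, not called in cKO replicate 1, chr10:19033825-19033975: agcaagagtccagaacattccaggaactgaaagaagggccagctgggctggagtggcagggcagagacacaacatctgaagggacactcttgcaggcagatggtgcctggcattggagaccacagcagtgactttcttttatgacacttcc
Nfkbie, intron, 1.43 kb downstream, not called in cKO replicate 1, chr17:45556843-45556993: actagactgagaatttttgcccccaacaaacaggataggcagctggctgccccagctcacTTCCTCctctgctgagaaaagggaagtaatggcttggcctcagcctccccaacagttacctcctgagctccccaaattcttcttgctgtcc
Nfkbiz, 39.8 kb downstream of the start, lower in cKO, chr16:55799024-55799174: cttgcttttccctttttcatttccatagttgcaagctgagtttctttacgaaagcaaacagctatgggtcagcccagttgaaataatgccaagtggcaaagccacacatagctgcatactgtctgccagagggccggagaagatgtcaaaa
Nfkb1, intron, 86.7 kb downstream of the start, higher in cKO, chr3:135604701-135604851: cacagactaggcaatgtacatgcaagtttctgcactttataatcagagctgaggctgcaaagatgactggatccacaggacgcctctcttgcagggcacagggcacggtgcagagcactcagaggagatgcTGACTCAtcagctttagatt
Nfkbiz, 29.0 kb downstream of the start, gained in cKO, chr16:55810269-55810419: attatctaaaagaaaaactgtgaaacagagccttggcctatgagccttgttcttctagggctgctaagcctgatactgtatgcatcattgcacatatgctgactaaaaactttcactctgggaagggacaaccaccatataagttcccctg
The capitals mark a C/EBP match (TTGCNNAA) in the Tnfaip3 intron and a PU.1 match (GAGGAA) in the Nfkbie intron, both on the reverse strand, and an AP-1 match (TGANTCA) in the higher Nfkb1 region.

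Each deposited list gives, for a peak, the area under its significance curve, and the percentile of that area among all peaks of the same list was used as the level of a region, since areas depend on depth. A percentile of 99 marks one of the strongest peaks of a library. The 4 lists held 51955 to 64939 peaks, with 55742 and 64939 in WT, against 51955 and 60884 in cKO, and read depth is unknown. The smallest area in a list was just above 200, the calling limit, so that a region not called in a library may lie just under that limit. H3f3a exon 2, the exon the study floxed, lay in a region called at percentiles 5.02 and 19.1 in WT and in neither cKO library, while the regions of H3f3b, floxed over several exons, were called in all 4, the stronger at 94.2 and 95.5 in WT, against 87.0 and 81.4 in cKO. The starts of 9 of 10 macrophage markers were open in every library, the exception being the annotated start of Csf1r, which was called in none. Among markers of other cells, the neutrophil gene Ly6g was open at its start in the cKO libraries only, at percentiles 30.3 and 17.8, while the other 3 neutrophil markers, Mpo, Elane and Ltf, had no peak at their starts in any library. None of the T cell, B cell, mast cell or fibroblast markers was open in any library. Lyz2 stood at 96.1 and 99.0 in WT, against 57.4 and 59.4 in cKO. The Cre of the cKO mice sits at the Lyz2 locus itself and was absent from WT. The altered locus and a change of the cells cannot be told apart there. The part of these marker differences in the results was not tested. Whether fewer cells had a site open or each cell had it less open cannot be told apart in such bulk libraries.

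The members' regions were called in all 4 libraries in 52 of 78 cases (66.7%), against 62.9% of all regions. Only 2 member regions were gained, that is, called in both cKO libraries and in no WT library, where 3.72% of all regions were. Both lay downstream of Nfkbiz. Lost regions, called in both WT libraries and in no cKO library, numbered 4 against 7.25% of all regions, with 2 at Nfkb1 and 1 each at Nfkbiz and Tnfaip3. The percentiles of both cKO libraries lay above those of both WT libraries at 14 of the 78 regions (17.9%), against 20.0% of all regions, and below them at 32 (41%), against 33.2%. The unequal lengths of the lists and uncalled regions, which count as 0 here, enter these shares.

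Peak area was then tested with limma at the 44820 regions called in all 4 libraries, after quantile normalization. Of the 52 member regions tested, 8 were higher in cKO (15.4%, against 20.7% of all regions) and 11 were lower (21.2%, against 20.8% of all), and their median difference was -0.11 on the log2 scale against 0.01 over all regions. These shares lie near the background, and no shift of the members as a group is read from them. The subunit genes had 4 higher and 6 lower regions of 26, and the inhibitor genes 4 higher and 5 lower of 26. The spread was wide, from -1.74 to 1.19 at the subunit genes and from -1.49 to 0.65 at the inhibitor genes. Regions of opposite direction lay within 1 gene at Nfkb1 and at Nfkbiz.

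**Figure D1:**
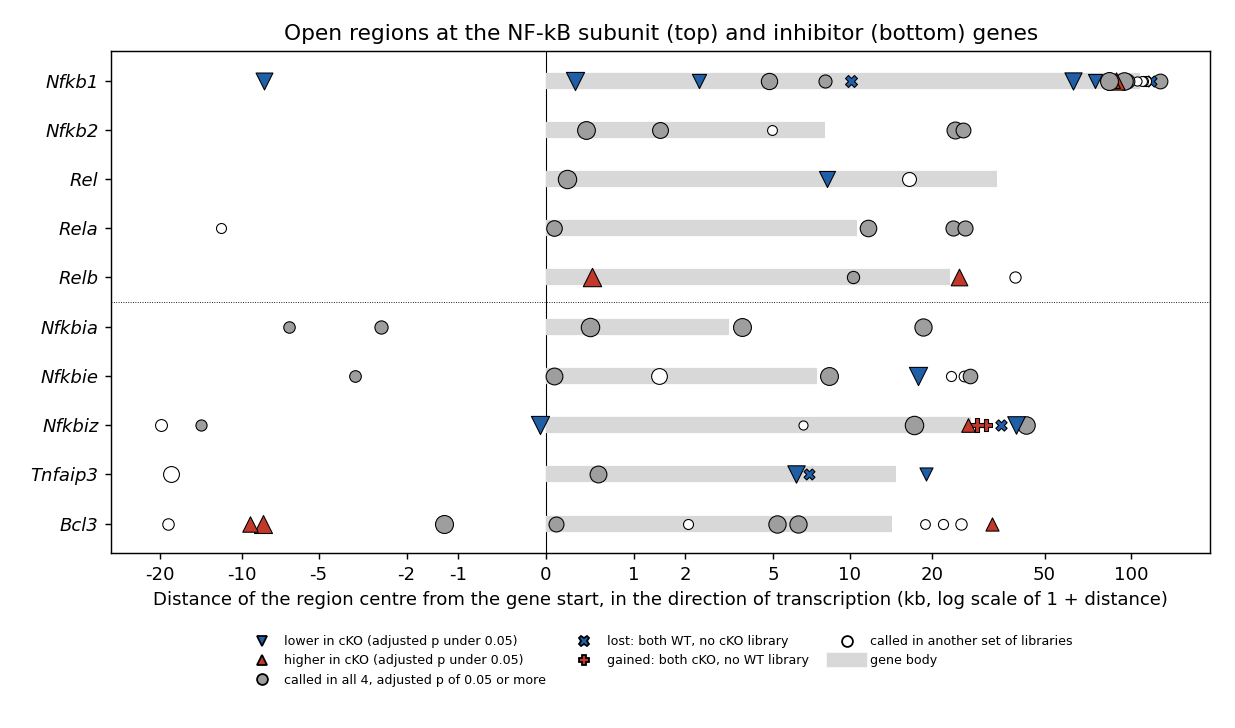
Positions of the 78 regions relative to the start of their gene, in kb on a log scale of 1 + distance with transcription to the right, for the 5 subunit genes (top) and 5 inhibitor genes (bottom). Gray bars are gene bodies, symbol size grows with percentile, and symbols show the call. Colored symbols at Tnfaip3 mark lower or lost regions and those at Relb and Bcl3 mark higher ones, while Nfkb1 and Nfkbiz carry both directions.

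The starts of all 10 genes were open in both genotypes. The region at the start was called in all 4 libraries for each gene, at percentiles of 45.2 to 99.0, and 1 of the 10 was higher in cKO and 2 were lower. Of all tested regions 20.7% were higher and 20.8% lower. Of those with a centre from 1 kb upstream to 100 bp downstream of a start, 19.2% were higher and 15.5% lower. The centres of the start regions of Nfkb1, Rel, Relb, Nfkbia and Tnfaip3 lie further into the gene and outside that class. Nfkbia had the strongest of them, at 99.0 and 98.8 in WT, against 97.7 and 98.5 in cKO, so that both cKO values lay just below both WT values. Its difference of -0.15 (SE 0.06) missed the threshold, with a limma adjusted p of 0.0519. It ran from -0.22 to -0.0955 with 1 library left out, and was 0.11 in the opposite direction under median scaling. Rel was as open, at 98.2 and 97.7 in WT, against 98.4 and 97.4 in cKO, with interleaved values and a difference of -0.03 (SE 0.04). This difference was 0.26 under median scaling, and its lowest limma adjusted p over the alternatives was 0.0237.

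Relb, which encodes the partner of p52, had the one start that was higher in cKO. Its percentiles were 97.5 and 97.4 in WT, against 98.7 and 98.4 in cKO, and peak area was 1.19-fold higher (log2 difference 0.26, SE 0.05, limma adjusted p = 0.0053). The region, chr7:19628206-19629784, spans the start and has its centre in the first part of the gene, 0.443 kb downstream. Nfkb1 and Nfkbiz had the lower ones. At the Nfkb1 start, chr3:135690481-135692096, the region stood at 94.9 and 96.1 in WT, against 91.5 and 92.2 in cKO, a 0.811-fold level (log2 difference -0.30, SE 0.05, adjusted p = 0.00207). Under median scaling this difference was -0.10 with an adjusted p of 0.311. The region at the Nfkbiz start, chr16:55838368-55839526, stood at 95.5 and 95.2 in WT, against 91.2 and 88.7 in cKO, a 0.75-fold level (log2 difference -0.41, SE 0.08, adjusted p = 0.00456), and it missed the threshold under median scaling (-0.22, adjusted p = 0.0936). At these 3 starts the genotypes did not overlap, and all values stayed in the upper part of the lists. Without limma's trend of variance on level, the Relb and Nfkbiz starts missed the threshold (adjusted p = 0.08 and 0.0556).

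The other starts did not pass the test. Rela had a start of middle rank, at 55.7 and 55.3 in WT, against 56.1 and 66.9 in cKO. cKO replicate 1 lay close to the WT values and cKO replicate 2 above them. The difference of 0.35 (SE 0.13) had an adjusted p of 0.0529, and ran from 0.22 to 0.48 with 1 library left out. Nfkb2 stood at 88.6 and 88.8 in WT, against 88.7 and 90.6 in cKO. Nfkbie stood at 74.8 and 78.4 in WT, against 67.7 and 74.6 in cKO, and Tnfaip3 at 74.8 and 78.6 against 70.6 and 73.1, without overlap in either. Bcl3 had the lowest start of the 10, at 49.9 and 58.9 in WT, against 45.2 and 49.98 in cKO, where the values overlapped. The log2 differences of these 4 starts lay between -0.16 and 0.12, and that of Nfkb2 passed under median scaling (0.28, adjusted p = 0.0143).

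**Figure D2:**
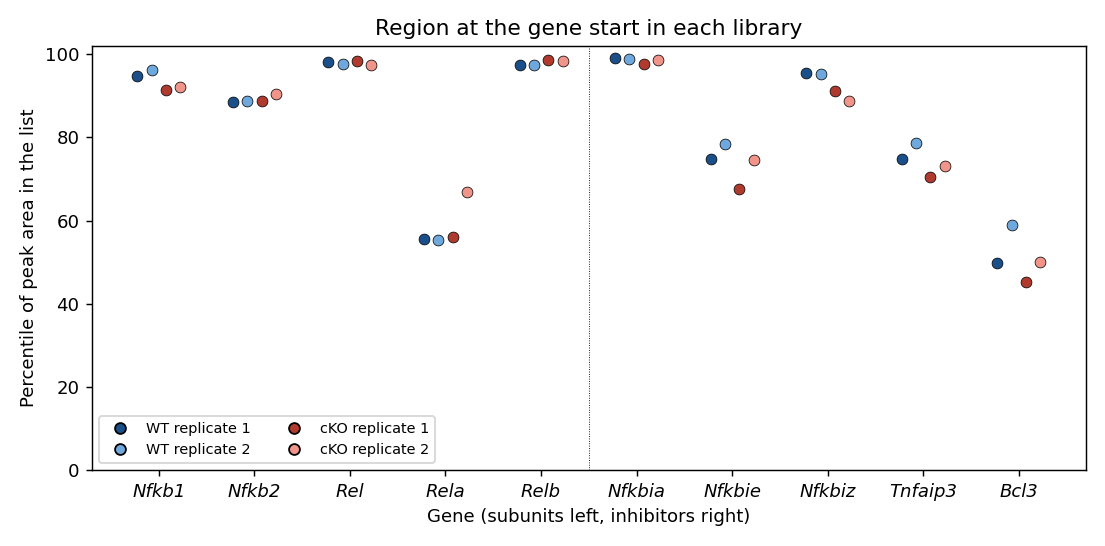
Percentile of peak area of the region at each gene start (vertical axis, 0 to 100) in the 4 libraries, with 1 point per library and subunit genes on the left. Rel, Relb and Nfkbia lie above 97 in every library, Rela and Bcl3 lie near the middle of the lists, both cKO points lie above both WT points at Rela and Relb, and below them at Nfkb1, Nfkbia, Nfkbie, Nfkbiz and Tnfaip3.

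Nfkb1 had the most regions of the 10 genes, 20 in a window of 147 kb. Of the 13 tested, 2 were higher and 5 were lower in cKO, where 20.7% and 20.8% of all tested regions were. The largest difference of the tested member regions lay at chr3:135699429-135700062, in intergenic DNA 8.2 kb upstream of the start. It stood at 76.8 and 80.1 in WT, against 24.5 and 36.6 in cKO, so that a strong peak of WT ranked in the lower part of the cKO lists. Peak area was 0.3-fold the WT level (log2 difference -1.74, SE 0.11, adjusted p = 3.09e-05). The difference kept its direction and call in the 10 alternatives in which it could be tested, the stricter peak threshold not among them. Nfkb1 is the nearest protein-coding start to it.

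Within the Nfkb1 introns the direction was mixed. The region at chr3:135604660-135604968, 86.7 kb downstream of the start, was weak in WT at 5.46 and 11.3 and ranked at 36.3 and 47.7 in cKO. It was 2.29-fold higher (log2 difference 1.19, SE 0.16, adjusted p = 0.000658), the largest rise among the tested member regions, and it kept its call in the 9 alternatives in which it could be tested. Next to it, the stronger region at chr3:135602585-135603621 was at 76.1 and 81.4 in WT, against 79.0 and 86.1 in cKO. There the values overlapped, and the 1.2-fold difference (0.26, SE 0.09, adjusted p = 0.0381) was lost without WT replicate 1 (adjusted p = 0.165) or cKO replicate 2 (adjusted p = 0.219). Other intron regions, nearer to the start, were lower in cKO. The one 74.6 kb downstream, chr3:135616645-135617201, stood at 39.6 and 49.4 in WT, against 13.4 and 22.3 in cKO (log2 difference -0.81, SE 0.15, adjusted p = 0.00328).

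A wider region 63.0 kb downstream of the Nfkb1 start, chr3:135627925-135629097, stood at 79.2 and 85.4 in WT, against 56.7 and 75.4 in cKO, with the cKO replicates far apart. Its difference was -0.63 (SE 0.15, adjusted p = 0.00987), with an adjusted p of 0.0691 in limma without the trend. Close to the start, chr3:135688990-135689406 in an intron 2.35 kb downstream stood at 42.4 and 49.2 in WT, against 21.8 and 30.4 in cKO (-0.57, SE 0.15, adjusted p = 0.0136). That call was lost without WT replicate 1 (adjusted p = 0.1) or WT replicate 2 (adjusted p = 0.0656). The 2 lost regions were weak in WT. The intron region 10.1 kb downstream stood at 13.5 and 33.7, and an intergenic one 117 kb downstream, whose nearest start is that of Manba, at 16.3 and 14.9. The remaining 11 regions of Nfkb1 were neither called different nor gained or lost, and where they had a peak it ranged from percentile 1.07 to 96.0.

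Rel, which is abundant in lymphoid and myeloid cells, had 3 regions. Both of its intron regions were lower in rank in cKO than in WT. That 16.6 kb downstream of the start, chr11:23754161-23754649, stood at 39.6 and 46.6 in WT, was not called in cKO replicate 1 and stood at 17.1 in cKO replicate 2, so that it was not tested. That 8.16 kb downstream stood at 64.0 and 71.6 in WT, against 54.4 and 62.0 in cKO. Its difference of -0.28 (SE 0.10, adjusted p = 0.048) lost its call when each library in turn was left out, with adjusted p-values of 0.0692 to 0.27. The stronger start region beside them did not pass the test.

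Relb had 4 regions, and at all 4 the cKO percentiles exceeded those of WT, where 20.0% of all regions did, with an uncalled library counted as 0. Besides the start, the region at chr7:19604219-19604883, 24.9 kb downstream of the Relb start, was higher, at 65.7 and 70.7 in WT, against 72.3 and 78.2 in cKO (log2 difference 0.39, SE 0.08, adjusted p = 0.00508). It lies at the promoter of the neighboring gene Clasrp. The Relb intron region 10.2 kb downstream stood at 12.8 and 22.3 in WT, against 22.5 and 30.3 in cKO, a difference of 0.37 (SE 0.17) that did not pass (adjusted p = 0.112). The region 39.4 kb downstream, nearest to Zfp296, was absent or weak in WT, with a single peak at 7.18 in WT replicate 2, and stood at 13.8 and 20.3 in cKO. The 3 tested differences ranged from 0.26 to 0.39.

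Rela and Nfkb2 held no region that passed the test. Rela had 5 regions, of which 4 were tested with differences of -0.23 to 0.35, and Nfkb2 had 5, of which 4 were tested with differences of -0.27 to 0.17. Stronger than the Rela start was a region 11.7 kb downstream, beyond the gene end, at 79.6 and 67.5 in WT, against 57.6 and 78.2 in cKO, where the genotypes overlapped. The kB match there spanned the summit. At Nfkb2 a further annotated start, 1.46 kb downstream of the first, stood at 61.9 and 68.6 in WT, against 60.5 and 51.8 in cKO (-0.27, SE 0.17, adjusted p = 0.231), and its kB match spanned the summit. The other Rela regions included those of Sipa1 and the other Nfkb2 regions those nearest to Fbxl15, which lie within 20 kb.

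Tnfaip3 showed the most uniform pattern of the inhibitors. All 5 of its regions had cKO percentiles below those of WT, where 33.2% of all regions did, with an uncalled library counted as 0. Tnfaip3 is the nearest protein-coding start to each of them. The intron region at chr10:19009168-19009782, 6.18 kb downstream of the start, stood at 85.0 and 83.9 in WT, against 47.6 and 45.9 in cKO. Peak area was 0.356-fold the WT level (log2 difference -1.49, SE 0.13, adjusted p = 9.12e-05). It stayed called in the 10 alternatives in which it could be tested, the stricter peak threshold not among them. Next to it, at chr10:19008492-19008943, the region with the intronic kB match shown above was lost, having stood at 11.6 and 18.3 in WT.

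Upstream of Tnfaip3, the region at chr10:19033690-19034082 stood at 64.2 and 66.0 in WT, was not called in cKO replicate 1 and was at 8.21 in cKO replicate 2. With the missing value set to 0, its mean percentile fell by 61.0, and with a missing cKO value it was not tested. The region 19.0 kb downstream of the start, beyond the gene end, stood at 28.7 and 40.2 in WT, against 12.1 and 17.5 in cKO (-0.56, SE 0.17, adjusted p = 0.0259). That call was lost when each library in turn was left out, with adjusted p-values of 0.0556 to 0.136. The start itself, which carries a kB match, differed by -0.14 (SE 0.08, adjusted p = 0.184).

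Nfkbiz carried both gained regions. They lay downstream of the gene, at chr16:55809258-55810459 with percentiles of 57.1 and 20.6 in the cKO libraries and at chr16:55807530-55807933 with 17.0 and 22.4. Neither was called in WT, and the 2 cKO values of the first lay far apart. Toward the same side, a region in exon 14 of Nfkbiz, 26.8 kb downstream of the start, stood at 22.0 and 26.8 in WT, against 31.9 and 47.1 in cKO. It was 1.54-fold higher (0.62, SE 0.17, adjusted p = 0.0152), and the call was lost without WT replicate 1 (adjusted p = 0.0633) or WT replicate 2 (adjusted p = 0.107).

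Further downstream of Nfkbiz the direction turned. The region at chr16:55798797-55799357, 39.8 kb from the start, stood at 86.6 and 87.4 in WT, against 69.9 and 72.2 in cKO. It was 0.612-fold the WT level (-0.71, SE 0.07, adjusted p = 0.000179) and stayed called in 11 of 11 alternatives. Between these, 35.1 kb from the start, a weak region at 8.65 and 26.6 in WT was lost. The strongest region of the gene, centred in an intron 17.2 kb downstream, holds a further annotated start of Nfkbiz. It stood at 97.8 and 99.3 in WT, against 97.3 and 97.2 in cKO and did not pass the test (-0.15, adjusted p = 0.107). Upstream, 19.8 kb from the start in an intron of Nxpe3, a region absent from WT replicate 1 and at 0.52 in WT replicate 2 stood at 20.6 and 25.3 in cKO.

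Nfkbie had 8 regions, and the largest fall in mean percentile of all 78 regions, with a missing value set to 0, lay in its intron 1.43 kb downstream of the start. This region, chr17:45556579-45557693, stood at 65.2 and 63.0 in WT, was not called in cKO replicate 1 and stood at 2.27 in cKO replicate 2. It was not tested for want of a cKO value. The only called region in the window, 17.8 kb downstream, is the promoter of the chaperone gene Hsp90ab1, at 96.1 and 96.0 in WT, against 88.4 and 95.1 in cKO (-0.18, SE 0.06, adjusted p = 0.0422). It lost its call without WT replicate 1 (adjusted p = 0.185) or cKO replicate 1 (adjusted p = 0.232), and was 0.03 under median scaling.

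Nfkbia, the best known feedback inhibitor, had 5 regions called in all 4 libraries and no difference that passed. Its differences ranged from -0.19 to 0.09. The strongest apart from the start lay 3.68 kb downstream, just beyond the gene end, at 90.6 and 91.9 in WT, against 90.2 and 90.7 in cKO. The region 18.6 kb downstream stood at 81.1 and 83.7 in WT, against 73.9 and 80.0 in cKO (-0.19, SE 0.07, adjusted p = 0.0661). Of its regions, 3 including the start held kB matches.

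Bcl3 had 12 regions, of which 7 were tested, and the 3 called differences were all higher in cKO, where 20.7% of all tested regions were. The region 9.29 kb upstream, chr7:19831824-19832292, stood at 51.1 and 53.3 in WT, against 54.4 and 65.8 in cKO (0.42, SE 0.12, adjusted p = 0.0242). Its stronger neighbor 8.33 kb upstream, chr7:19830685-19831513, stood at 90.6 and 91.7 in WT, against 92.3 and 93.9 in cKO (0.20, SE 0.05, adjusted p = 0.015). The third, 32.7 kb downstream in an intron of Cblc, stood at 14.6 and 23.7 in WT, against 26.1 and 44.5 in cKO (0.65, SE 0.17, adjusted p = 0.0159). Each call was lost when certain libraries were left out. Without WT replicate 2 or cKO replicate 2 the adjusted p-values were 0.147 and 0.0961 for the first, 0.0653 and 0.0671 for the second, and 0.0865 and 0.0564 for the third. Without WT replicate 1 they were 0.0519 for the second and 0.108 for the third.

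**Figure D3:**
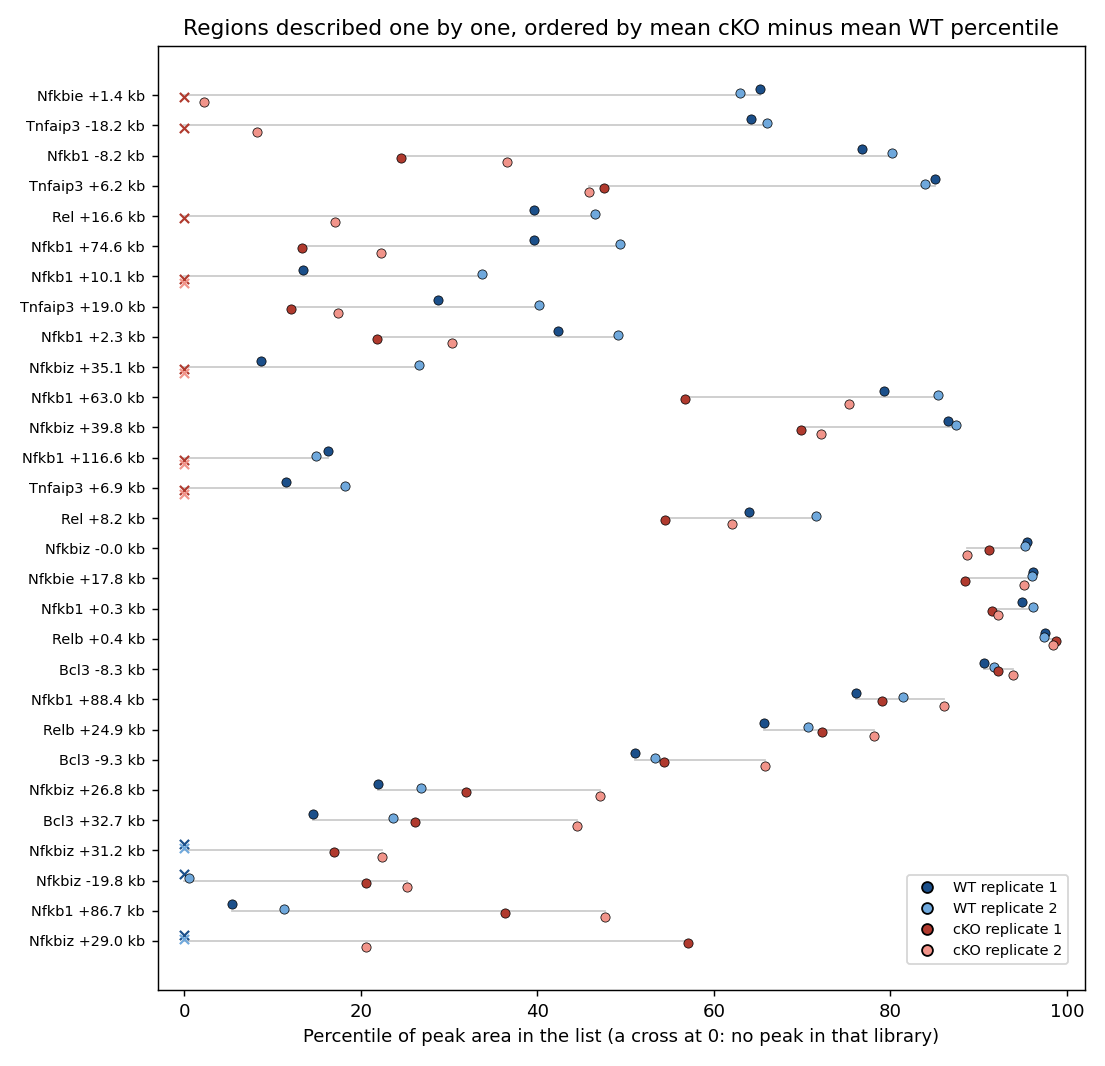
Percentile of peak area (horizontal axis) in each library for the 29 regions that were called different, gained, lost, or apart by 20 points or more without overlap, ordered from the largest fall to the largest rise in cKO, with the distance from the gene start in kb. Crosses at 0 mark a library without a peak, and the widest gaps are at Nfkbie, Tnfaip3 and Nfkb1, where WT points lie at 63 to 85 and cKO points below 48.

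When all peaks of a window were summed for each gene, 4 of the 10 members differed in the limma fit over 16118 protein-coding genes. Relb was higher, where 22.6% of all genes were, and Tnfaip3, Nfkb1 and Nfkbie were lower, where 22.0% of all genes were. Tnfaip3 had the largest difference, with summed areas of 4620 and 5196 in WT, against 1921 and 2331 in cKO. After normalization this was 0.471-fold (log2 difference -1.09, SE 0.09, adjusted p = 2.38e-06). Peaks covered 2.52 and 3.08 kb of the window in WT and 1.25 and 1.63 kb in cKO, and area per covered kb was 1835 and 1687 in WT, against 1543 and 1433 in cKO. Fewer peaks were called, 5 and 5 in WT against 3 and 4 in cKO. The exact permutation test of peak number gave p = 0.333, the smallest that 2 against 2 libraries allow.

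Nfkb1 summed to 16024 and 20503 in WT, against 12749 and 16766 in cKO, so that the raw sums overlapped. Normalized for the lists, the difference was -0.27 (SE 0.05, adjusted p = 0.000649), with 9.62 and 10.9 kb covered in WT and 7.47 and 9.48 kb in cKO and area per covered kb of 1667 and 1884 against 1707 and 1768. Relb summed to 4713 and 5553 in WT, against 6109 and 6782 in cKO, a difference of 0.42 (SE 0.07, adjusted p = 0.000355). Its peaks covered 2.35 and 2.45 kb in WT and 2.62 and 2.61 kb in cKO, with area per covered kb of 2002 and 2266 against 2333 and 2601. These genes and Tnfaip3 kept their calls in 11 of 11 alternatives. Nfkbie differed by -0.21 (SE 0.06, adjusted p = 0.0164), with 5.96 and 6.17 kb covered in WT and 4.46 and 5.65 kb in cKO and area per covered kb of 1393 and 1551 against 1397 and 1531. Its call was lost without WT replicate 1 (adjusted p = 0.0753), without cKO replicate 1 (adjusted p = 0.153) and under median scaling (adjusted p = 0.0761).

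The other 6 windows did not pass. Bcl3 came closest at 0.13 (SE 0.05, adjusted p = 0.0501). It passed under median scaling (0.18, adjusted p = 0.0199) and with a window of 50 kb (0.23, adjusted p = 0.0018). Over all alternatives it ran from 0.0481 to 0.23, and from 0.0773 to 0.19 with 1 library left out. Nfkbiz, in which gained and lost regions stood side by side, differed by -0.07 (SE 0.06) in all and by -0.15 to 0.0075 with 1 library left out. For Rela the difference was -0.11 (SE 0.08), for Nfkb2 0.05 (SE 0.07), for Nfkbia -0.05 (SE 0.06) and for Rel -0.04 (SE 0.06). The 95% interval ran from -0.28 to 0.07 for Rela, from -0.09 to 0.20 for Nfkb2, from -0.17 to 0.07 for Nfkbia and from -0.17 to 0.09 for Rel. Over the alternatives the Nfkb2 difference ran from -0.14 to 0.0821, with a lowest limma adjusted p of 0.0442. The Rel difference ran from -0.18 to 0.0953, with a lowest of 0.0152.

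**Figure D4:**
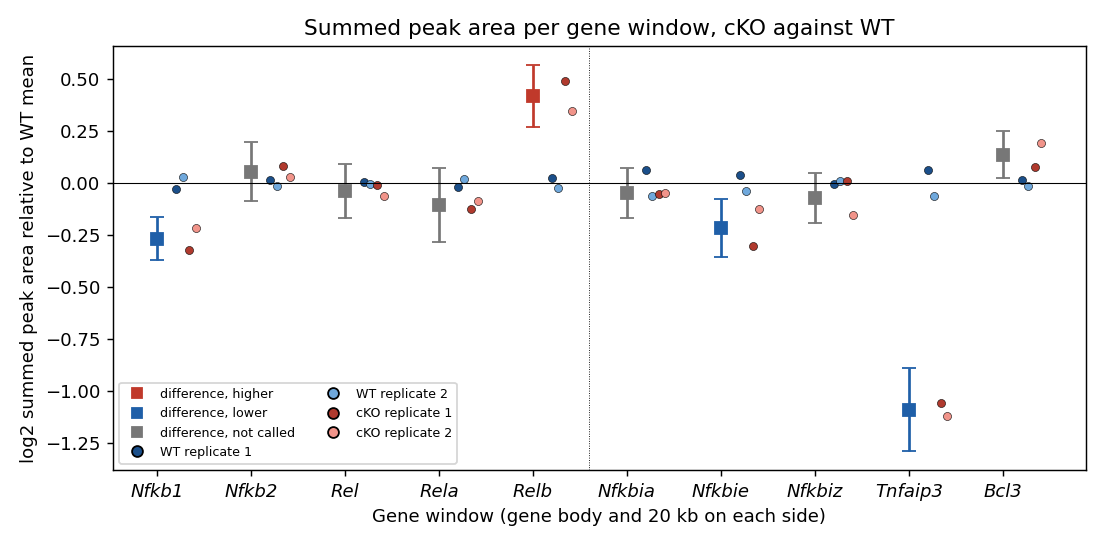
Log2 summed peak area per gene window relative to the WT mean, with squares for the cKO minus WT difference and its 95% interval from limma, and 1 point per library beside each square. Tnfaip3 lies at -1.09, Relb at 0.42 and Nfkb1 at -0.27, and the intervals of Nfkb2, Rel, Rela, Nfkbia and Nfkbiz span 0.

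The density of regions also differed between the genes. Bcl3 had 2.21 regions per 10 kb, a value at percentile 99.0 of the protein-coding genes, whose median was 0.47. Nfkbie had 1.69, Nfkbiz 1.63 and Nfkb1 1.36 per 10 kb. Relb with 0.633 and Rel with 0.405 had the fewest, although their starts were among the strongest of the 10. These windows include regions of neighboring genes in the dense loci, and 59 of the 78 regions had the member itself as the nearest protein-coding start.

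Matches to the kB consensus, which the choice of genes did not use, stood at 20.5% of the 78 member regions against 4.85% of all regions. Among regions called in all 4 libraries the shares were 25% and 5.14%. The inhibitor genes held 11 of the 16 regions with a match, at 26.8% of their regions, and the subunit genes held 5, at 13.5%. Within 50 bp of the summit the shares of member and all regions were 7.69% and 2.39%, and those of the inhibitor and subunit genes, at 7.32% and 8.11%, no longer kept their order. The median GC content was 51.2% at the member regions against 48.8% at all regions, and the part of GC content in these shares was not tested. These shares are a description of the letters in the windows and not of binding.

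Other consensus letters were less frequent at the members than overall. AP-1 (TGANTCA) matched 8.97% of member regions against 16.7% of all, PU.1 (GAGGAA) 29.5% against 39.8%, and C/EBP (TTGCNNAA) 6.41% against 12.3%. The interferon-stimulated response element (ISRE), searched as GAAA, any 2 bases and GAAA, matched none of the 78 and 3.9% of all. Both strands were searched, and matches of different motifs may share bases. Of the 16 regions with a kB match, 13 were tested, of which 2 were lower (the starts of Nfkb1 and Nfkbiz) and none was higher in cKO, and 1 more was lost. Of the 62 without a match within 100 bp of the summit, 39 were tested, with 8 higher and 9 lower. Over all tested regions 20.7% were higher and 20.8% lower, and 7.25% of all regions were lost. Calls over all regions with a match were not counted, and no difference between these small sets is read. Matches farther from the summit, as in the start regions of Rel and Nfkb2, are not in these counts.

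**Figure D5:**
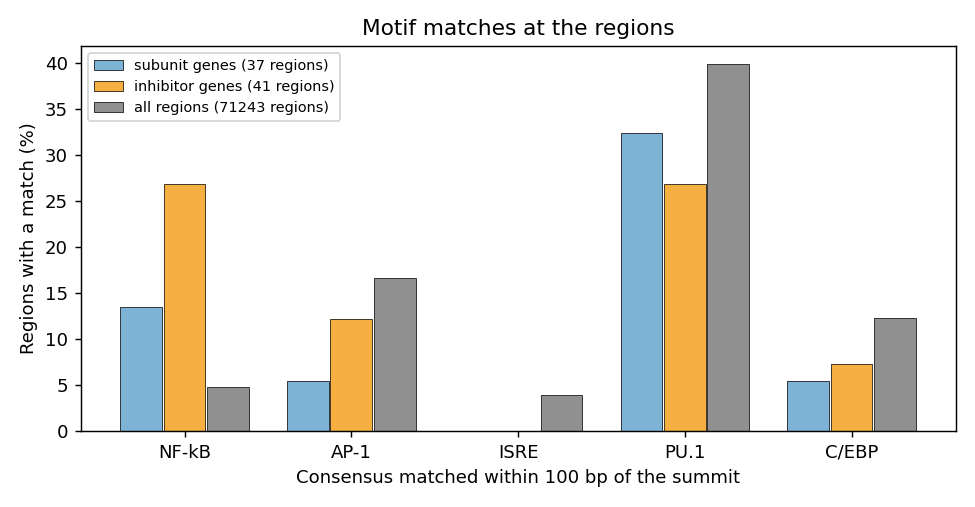
Share of regions, in percent, with a consensus match within 100 bp of the summit for the NF-kB, AP-1, ISRE, PU.1 and C/EBP motifs at the subunit genes, the inhibitor genes and all regions. The NF-kB bars of the members, 13.5% and 26.8%, stand above the bar of all regions at 4.85%, and the other member bars stand below theirs.

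RefSeq promoter sequences of GRCm38.p6 (mm10), taken over 250 bases before the start, were present for 7 of the 10 genes, and 7.25% of 32851 promoters held a kB match. Nfkb2 had a match in 3 of its 3 promoters, with up to 3 matches in 1 of them, and Rel had 2 overlapping matches. Nfkbia, Nfkbie and Tnfaip3 had matches as well, in 1 of 2 promoters for Tnfaip3, and Rela and Bcl3 had none. The Nfkbia promoter, chr12:55492648-55492897, and the Nfkbie promoter, chr17:45555450-45555699, are shown in the direction of transcription because both genes combine kB letters with an open start that did not pass the test. Capitals mark the kB matches.
Nfkbia: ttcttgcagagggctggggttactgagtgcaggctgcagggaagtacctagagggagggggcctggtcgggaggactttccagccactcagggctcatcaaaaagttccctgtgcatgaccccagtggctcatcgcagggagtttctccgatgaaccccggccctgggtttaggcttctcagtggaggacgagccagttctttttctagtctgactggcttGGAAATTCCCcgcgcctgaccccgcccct
Nfkbie: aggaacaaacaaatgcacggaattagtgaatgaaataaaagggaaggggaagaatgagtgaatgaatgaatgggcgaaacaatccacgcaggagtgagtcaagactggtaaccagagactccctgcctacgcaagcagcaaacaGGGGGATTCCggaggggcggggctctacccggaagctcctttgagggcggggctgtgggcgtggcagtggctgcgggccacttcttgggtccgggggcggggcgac

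The 42 other genes of the pathway, taken from a list of kinases, adaptors, receptors and further regulators, were all tested, and 11 were higher and 13 lower in cKO, where 22.6% and 22.0% of all genes were, with a median difference of -0.05. Cd40, a receptor of the noncanonical route, had the largest difference, at 0.578-fold (log2 difference -0.79, SE 0.10, adjusted p = 5.4e-05). The adaptor Traf5 (-0.35), the kinases Ikbke (-0.40), Map3k14 (-0.32), which encodes the noncanonical kinase NIK, Chuk (-0.33) and Ikbkb (-0.21), and the A20-binding Tnip2 (-0.33) were lower too. So were Tab2 (-0.37), Il1r1 (-0.22), Map3k7 (-0.20), Traf2 (-0.20), Myd88 (-0.17) and Irak2 (-0.17). Higher values were found for the deubiquitinase Cyld (0.37), the inhibitor gene Nfkbib (0.36), the adaptor Traf6 (0.34), Irak4 (0.34), the scaffold Ikbkg (0.31) and the adaptor Ticam1 (0.28). Tab3 (0.26), Tirap (0.22), Nfkbil1 (0.21), Ripk1 (0.13) and Otulin (0.13) were higher as well. Among the genes of the IkB kinase complex, Chuk and Ikbkb were lower and Ikbkg higher. The log2 area of Ikbkg stood at 12.52 and 12.54 in WT, against 12.67 and 13.01 in cKO, with the cKO replicates apart. These windows can hold regions of neighboring genes, and the calls of the pathway genes were not followed over the alternatives. Of the cytoplasmic IkB genes, Nfkbib was higher, Nfkbie lower and Nfkbia not called.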

How the data were processed

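ATAC-seq of WT and cKO BMDMs was deposited as 1 peak list per library, 2 libraries per genotype. Per the study's methods and the submitters' processing notes, the authors aligned paired reads to mm10 with Bowtie2 2.5.1 and called peaks in each library alone with Genrich at default settings. Read filters, duplicate removal and end shift are not given in the sources used here. The deposited signal is the area under the significance curve of a peak, the deposited -log10 p is that of its summit, and the deposited score is the area scaled to peak length, with an upper limit. Read counts were not used here, so depth is unknown and no counting intervals are given.

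Peaks sharing at least 1 bp were merged into regions and assigned to genes by overlap with GENCODE M21 gene bodies and 20 kb on each side. The level of a region was the within-list percentile of its strongest peak. Summed area per region or gene window was quantile normalized as log2 and tested with limma 3.58.1 (trend, Benjamini-Hochberg, threshold 0.05) over all features, in R 4.3.3 with Python 3.11.15. The fit was tested on simulated data with independent noise and 200 changed features, as many up as down. Far more features were called in the real data, so the simulation does not test the choice of scaling. Exact permutation tests were two-sided, and 2 against 2 libraries allow 6 assignments and no p below 0.333. Regions were named if at a gene start, gained, lost, past the threshold, or apart by 20 percentile points without overlap. A few others were named after their values were seen. The members, pathway list and tests were chosen with earlier results of these data known. Alternatives were other scalings, windows, peak thresholds and lists of equal length, a replicate block and leaving out each library. The result of 1 marker gene is not reported here.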

Additional observations from a re-analysis of the deposited data

How the results depend on the processing

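Of the 19 member regions called, 4 kept their call in every alternative in which they could be tested: those 8.2 kb upstream and 86.7 kb downstream of the Nfkb1 start, the Tnfaip3 intron region and the Nfkbiz region 39.8 kb downstream. Of the 4 windows called, 3 did, and the ranges were -0.32 to -0.19 for Nfkb1, 0.34 to 0.49 for Relb and -1.73 to -0.76 for Tnfaip3. With a window of 50 kb the members held 140 regions, 5 gained and 10 lost, 29 not overlapping and higher and 56 lower, and 2 gene windows were higher and 5 lower. The shares of all regions were 3.72%, 7.25%, 20.0% and 33.2%, and 4522 of all 17618 gene windows were higher and 4295 lower. A stricter peak threshold left 43 regions, 0 gained, 5 higher and 21 lower without overlap, calls of 4254 higher and 4349 lower over all regions, 4 and 5 over member regions, and 1943 and 2189 over all gene windows. Of all regions 3.81% were then gained, and 20.3% were higher and 34.3% lower without overlap. Lists of equal length gave 6 gained regions, against 7.035% of all regions, and a cover of 50% gave 7 lost ones, against 8.35% of all. Over all regions 9299 were higher and 9310 lower (49.97% higher), 12943 and 7499 under median scaling (63.3%), and 3035 and 5866 with normal scores (34.1%). Median scaling moved the median of all regions from 0.01 to 0.0969 and gave 14 higher and 7 lower member regions and 2 higher windows, and normal scores, in SD units, gave 3 higher member regions. Leaving out each library gave 2 to 6 gained, 4 to 8 lost, 14 to 30 higher and 34 to 46 lower without overlap (over all regions 3.88% to 9.16%, 7.66% to 14.4%, 20.5% to 40.5% and 34.2% to 57.6%), 6522 to 8830 higher and 6040 to 9286 lower calls over all regions, 4 to 11 higher and 8 to 12 lower member regions, and 1 to 2 higher windows. Within 50 bp of the summit NF-kB letters matched 7.69% and PU.1 letters 16.7% of member regions. The cause of these shifts was not tested.

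Directions turned only where the difference of the main run was small. Gene windows did so for Nfkb2 (-0.14 at 50 kb and -0.0746 with the stricter threshold), Rel (0.0009 under median scaling and 0.10 with the stricter threshold), Rela (0.0683 at 50 kb), Nfkbia (0.0053 under median scaling and a range of -0.11 to 0.0103 over libraries left out) and Nfkbiz (0.0062 at 10 kb and -0.15 to 0.0075 over libraries left out). Regions did so at the Rel start (0.0228 for the top peak, 0.26 under median scaling, 0.0294 for stricter peaks, -0.0583 to 0.0742 over libraries left out), the Nfkbia start (0.11) and the Hsp90ab1 promoter (0.0298), both under median scaling. The turned values included calls at the Rel start and in the Nfkb2 window. Their lowest limma adjusted p-values over the alternatives were 0.0237 and 0.0442. Normal scores also ended the calls of the Relb region at Clasrp, 3 Bcl3 regions, the Nfkb1 regions at 2.35, 74.6 and 88.4 kb, the Nfkbiz exon 14 region, the Tnfaip3 region at 19.0 kb and the Rel intron region. Limma without the trend also ended those of the Rel intron region, the Hsp90ab1 promoter, the Nfkb1 region at 88.4 kb and the Bcl3 region at 8.33 kb (adjusted p = 0.0585 to 0.187).

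Replicate numbers are shared by the genotypes, but with 2 pairs and no common source named they do not pair the libraries. The correlation of the replicate differences was 0.13 over regions and 0.28 over gene windows. With a replicate block, 10229 regions were higher and 10175 lower, with 10 and 13 at the members, and 4473 gene windows were higher and 4244 lower, with 2 and 3 at the members. The block brought the Bcl3 window (adjusted p = 0.035), the Nfkbia start (0.0356) and the Rela start (0.0479) past the threshold. Read depth was not known, and regions missing from a list could not be told from regions just under the calling limit.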

Other observations

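Beyond the 20 kb used for the genes, the flanks from 20 to 50 kb held 62 further regions, of which 36 were tested, 7 were higher and 12 lower in cKO, 3 were gained and 6 lost, where 20.7% of all tested regions were higher, 20.8% lower, and 3.72% of all regions were gained and 7.25% lost. At Tnfaip3, 3 of 4 tested regions were lower. The one 50.6 kb downstream of its start, chr10:18964774-18965258, stood at 65.4 and 67.9 in WT, against 25.6 and 39.4 in cKO (log2 difference -1.13, SE 0.12, limma adjusted p = 0.000227). A strong region 46.8 kb upstream, chr10:19061968-19062999, was at 89.7 and 91.5 in WT, against 79.9 and 83.7 in cKO (-0.46, SE 0.06, adjusted p = 0.00051). The third, 28.3 kb upstream, differed by -0.31 (SE 0.10, adjusted p = 0.0292), and the fourth, 38.1 kb upstream, by 0.03 (SE 0.11). Tnfaip3 is the nearest protein-coding start to all of these.

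Regions further from Nfkbia, which had no called region within 20 kb, differed in both directions. Those 45.5 and 42.1 kb downstream were lower (-0.46 and -0.59), and that 26.9 kb downstream was higher (0.59, SE 0.12, adjusted p = 0.00393), at 45.6 and 56.2 in WT, against 58.2 and 69.3 in cKO. All 3 gained regions lay upstream of Bcl3, from 21 to 49.5 kb, with percentiles of 7.42 to 18.6 in cKO, and their nearest starts are those of Gm19345 and Ceacam16. These regions were looked at after the nearer ones, and a longer reach brings in more regions of other genes.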
